A study of Gallus gallus with 6 samples.

Results

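The genes described here encode the translation initiation factors (symbols EIF1 to EIF6) and elongation factors (EEF1 and EEF2) of the chicken jejunum, together with the direct regulators that carry the same symbols. They were chosen by symbol alone: every row whose symbol starts with EIF1 to EIF6 or with EEF1 or EEF2, leaving out the EIF2 kinases (EIF2AK) and the transporter EIF4ENIF1. This gave 50 genes, 40 EIF and 10 EEF, out of 15656 genes with a symbol and FPKM values (fragment counts scaled by gene length and library size). By RefSeq's GRCg7b gene table, 49 of the symbols matched directly and EIF1AY matched as a synonym of EIF1AX.

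RNA came from jejunal mucosa, the inner layer of the mid small bowel, of breeder hens aged 28 weeks. There were 3 heat-adapted libraries, of the breed Leuang Hang Kao, and 3 heat-sensitive libraries, of SUT hens. Each library pooled RNA of 4 hens, so 12 of the 25 hens housed in a group were sampled. Every hen had been kept at 36 °C for 6 h, so the comparison is between breeds under the same heat, and the heat response itself was not measured. Breed and heat tolerance cannot be told apart in this design, and p-values measure the spread between pools.

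Translation starts when EIF2 brings the initiator tRNA to the small ribosomal subunit, which EIF1, EIF1A, EIF3 and EIF5 hold ready for scanning. The EIF4 factors bind the messenger's cap and unwind its leader, and EIF5B joins the large subunit. During elongation EEF1A delivers each aminoacyl-tRNA, the EEF1B complex recharges EEF1A with GTP, and EEF2 moves the ribosome along. In the gut mucosa, whose epithelium renews itself continuously from dividing crypt cells, these factors serve both growth and the synthesis of secreted and membrane proteins. Those proteins include digestive enzymes of the epithelium and antibodies of plasma cells. Phosphorylation of EIF2, of the EIF4E-binding proteins and of EEF2 sets their activity, and transcript levels do not measure it.

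The deposited read counts summed to 10829957 to 13070796 per library. They stood in another row order than the gene symbols and could not be assigned to these genes. The FPKM values summed to 779730, 805203 and 885074 in the heat-adapted libraries, and to between 893271 and 898136 in the heat-sensitive ones. The FPKM and read-count columns of the heat-adapted group did not show the common ratio between libraries that those of the heat-sensitive group showed. The sources used here do not say which part holds the labelled libraries, and every value below is that of the FPKM columns. The enterocyte markers VIL1, CDH17, EPCAM, FABP1, FABP2, APOA1, SI, ANPEP and SLC5A1 were all present, with summed FPKM of 35200 to 50792 in heat-adapted and 21288 to 42623 in heat-sensitive libraries. The pancreatic markers PRSS2, CPA1 and CELA1 stayed at or near 0, with sums of at most 1.42.

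No translation factor passed the test between the breeds. Of the 48 members that reached a mean FPKM of 1, 0 had an adjusted p below 0.05 (limma on log2(FPKM + 1), Benjamini-Hochberg over all 11587 tested genes), where 0.0949% of all tested genes passed, 0.0345% lower and 0.0604% higher. The smallest adjusted p of a member was 0.172, for EEF1E1. An unadjusted p below 0.05 was reached by 3 members, all lower in the heat-adapted libraries. Among all tested genes 18% reached it, 10.9% lower and 7.13% higher, so the members' 6.25% lay below the background.

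Differences of the members were small and mostly negative. The heat-adapted value was lower in 38 and higher in 10 of the 48, against 58.3% lower among all tested genes. Their median log2 difference was -0.09, and that of all tested genes was -0.06. The sign of this median rested on the scaling between libraries: after rescaling FPKM to TPM (a fixed sum per library) it was 0.026. With TPM 22 members were lower and 26 higher, against 43.4% lower among all tested genes. That scaling moved the median of all genes by 0.11, to 0.05. Relative to the median of all genes the members stood at -0.04 with FPKM, at -0.02 with TPM, at -0.03 with median-of-ratios scaling and at -0.09 with quantile normalization. In the last of these 38 of 48 members were lower, against 50.2% of all tested genes. The 95% intervals of the 48 differences lay between -0.90 and 0.88 on the log2 scale, and 45 of them held 0.

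**Figure D1:**
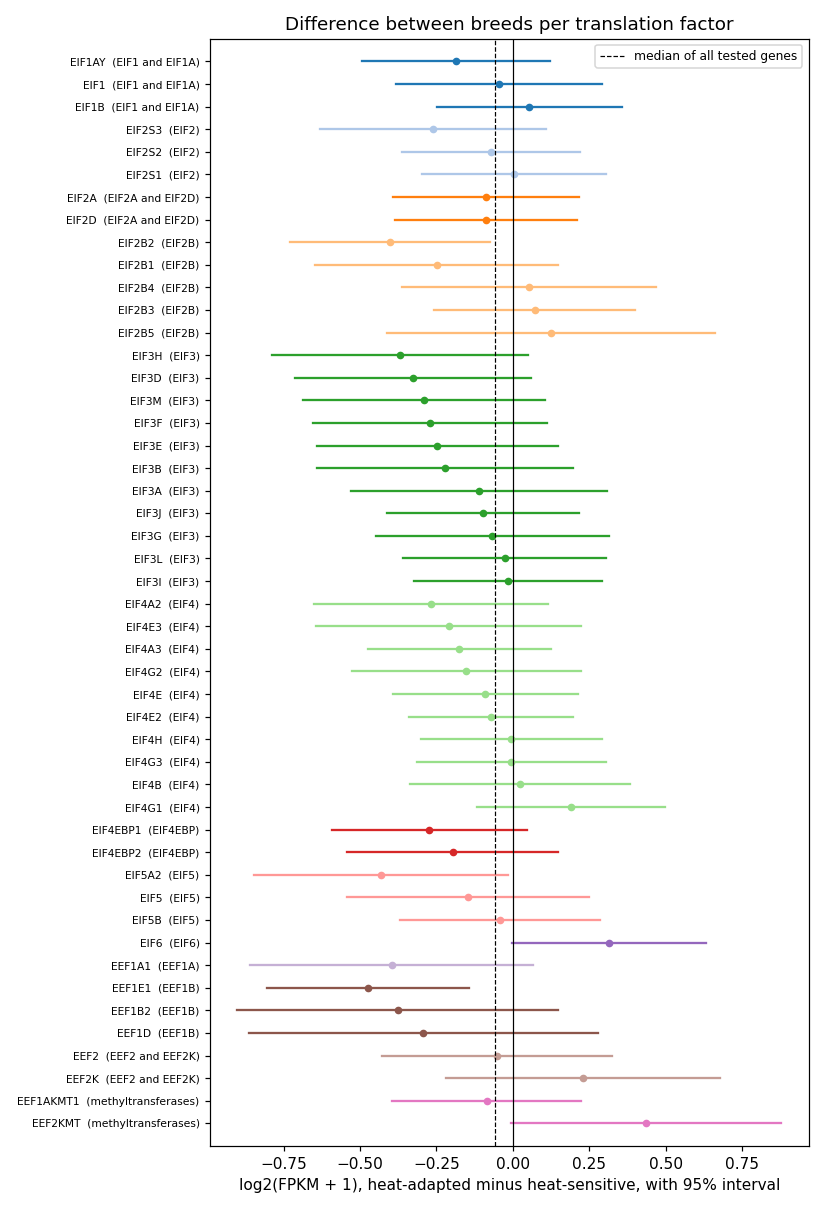
Log2 difference of log2(FPKM + 1), heat-adapted minus heat-sensitive, for the 48 tested factors by role, with the 95% interval from limma as a bar. The solid line marks 0 and the dashed line the median of all tested genes, -0.06. Intervals of 45 factors hold 0, and those of EEF1E1, EIF2B2 and EIF5A2 lie below it.

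In 8 of the 48 members the 3 heat-adapted values all lay below the 3 heat-sensitive values, and in 1 member they all lay above. Among all tested genes 12.9% were separated downward and 9% upward, 21.9% in either direction. The members' 18.8% was close to this background. The members separated downward were EEF1A1, EEF1E1, EIF1AY, EIF2B2, EIF4A2, EIF4A3, EIF4E2 and EIF4EBP1, and the one separated upward was EIF6. With TPM 1 member was separated downward and 5 upward, against 7.35% and 14.7% of all tested genes. With median-of-ratios scaling 5 were separated downward and 4 upward, against 11.3% and 11.8% of all tested genes. Separations and overlaps of single genes stated below are those with FPKM, and most downward ones did not hold with TPM.

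Markers of dividing, muscle and B cells lay lower beside the members, and those of enterocytes lay higher. Of the 9 enterocyte markers 8 were higher in heat-adapted mucosa (median log2 difference 0.58), and ANPEP was lower. In 3 of the 9 the groups were separated upward, against 9% of all tested genes. In limma 0 passed and 4 had an unadjusted p below 0.05. All 8 dividing cell markers (CDK1, TOP2A, MKI67, PCNA, RRM2, PLK1, AURKA and CCNB2) were present and lower, with summed FPKM of 135 to 192 in heat-adapted and 289 to 334 in heat-sensitive libraries. The 6 smooth muscle markers were all lower, with sums of 109 to 303 in heat-adapted and 304 to 607 in heat-sensitive libraries. The 5 B and plasma cell markers were all lower, with sums of 13256 to 20525 in heat-adapted and 28066 to 31507 in heat-sensitive libraries. IGLL1 made up most of these sums, with 11081 to 18007.5 in heat-adapted and 24486.7 to 27130.8 in heat-sensitive libraries. The groups overlapped in CD79B and MZB1, and in MYH11 and CNN1 of the smooth muscle list. All 8 dividing cell markers were separated downward, against 12.9% of all tested genes. In limma 0 of these markers passed. An unadjusted p below 0.05 was reached by 8 dividing cell, 5 smooth muscle and 3 B and plasma cell markers. Among all tested genes 18% reached it, 10.9% lower and 7.13% higher, and 58.3% had a negative difference. These marker values are given with FPKM alone. No marker of the dividing, muscle and B cell lists was at 0. Other lists were mixed: of the T cell markers 3 were lower and 1 higher, of goblet markers 1 and 2, and of endocrine markers 2 and 1. The part of these cells in the factor levels was not tested, and in bulk mucosa fewer cells of a type and less RNA per cell cannot be told apart.

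Mean levels of the tested members ran from 6.79 to 4880 FPKM. EEF1A1 was the most abundant factor, with the upper of these values over the 6 libraries, followed by EEF1D at 1603, EIF4A2 at 1307 and EEF1B2 at 884. Next came EEF2 at 476, EIF3H at 424, EIF3E at 377 and EIF1 at 365. From EEF2 to EIF1 the ranges of neighbours overlap, while every EEF2 value lies above every EIF1 value. EEF1D and EIF4A2 overlap as well, and the ranges of EEF1A1 and EEF1B2 overlap those of no neighbour. EEF1B2 reaches 1122, just below the lowest EIF4A2 value of 1126, and above the lowest EEF1D value of 1101. At the low end stood EIF1B at 18.7, EEF2KMT at 16.9, EEF1AKMT1 at 14.0, EIF4G3 at 13.3, EIF2B1 at 13.2 and EEF2K at 12.0. EIF2B5, the catalytic subunit of EIF2B, was the lowest. EEF1A1 alone made up 32.7% to 34.1% of the summed FPKM of all members in heat-adapted and 35.0% to 37.2% in heat-sensitive libraries.

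**Figure D2:**
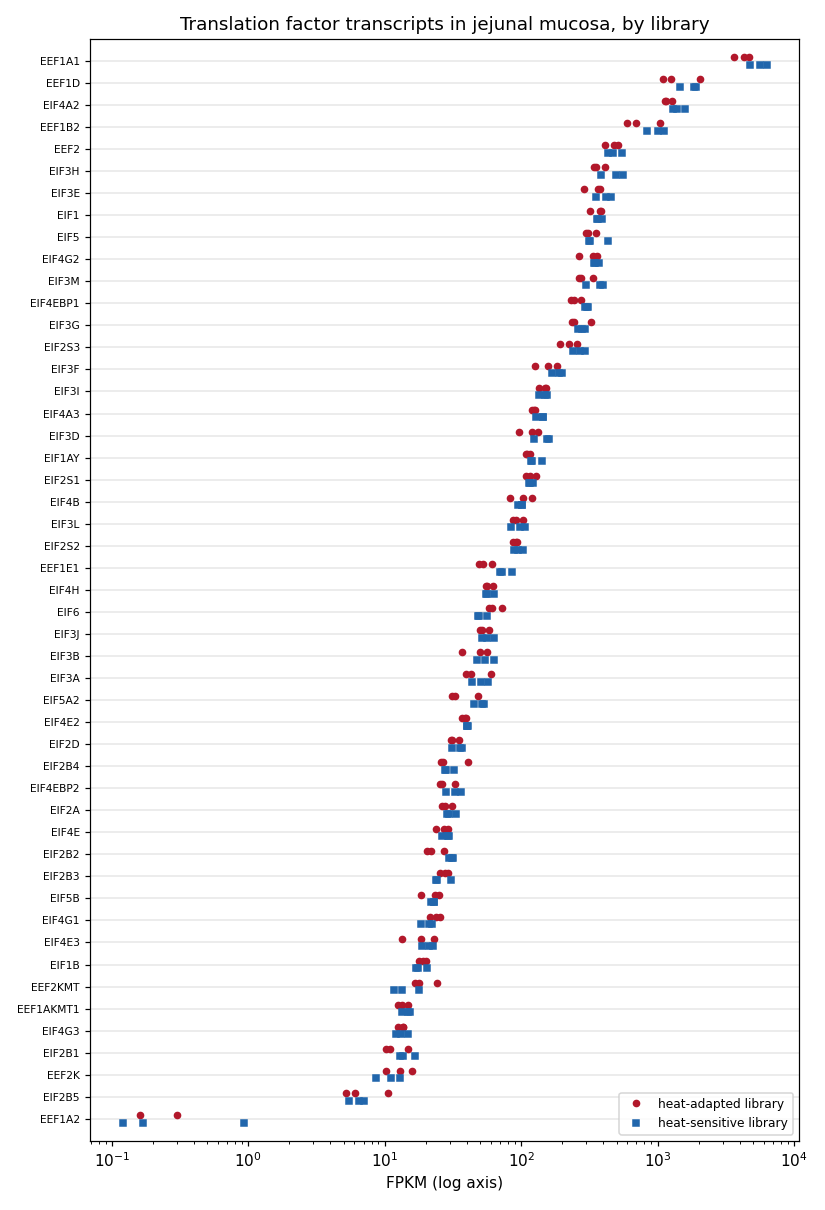
FPKM of each factor in each library on a log axis, ordered by mean level, with heat-adapted libraries as circles above heat-sensitive libraries as squares. EEF1G, at 0 in all 6 libraries, and the value of 0 of EEF1A2 in heat-adapted replicate 1 cannot be drawn on this axis. EEF1A1 lies at 3638 to 4656 in heat-adapted and 4727 to 6328 in heat-sensitive libraries, and the rows of most other factors overlap.

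EEF1A1, which carries aminoacyl-tRNA to the ribosome, had 3638, 4333 and 4656 FPKM in heat-adapted libraries, against 5601, 6328 and 4727 in heat-sensitive libraries. The highest heat-adapted value thus lay just below the lowest heat-sensitive one. The log2 difference was -0.40 (SE 0.20, 95% interval -0.86 to 0.06), with a limma adjusted p of 0.34. EEF1A2, its paralog known from mammalian muscle and brain, was at 0, 0.3 and 0.16 FPKM in heat-adapted libraries and at 0.12, 0.17 and 0.93 in heat-sensitive libraries. It fell below the filter and was not tested. The sources used here do not say how reads shared by near-identical genes were counted, so the split between EEF1A1 and EEF1A2, and between EIF1 and EIF1B, is uncertain.

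The EEF1B complex exchanges GDP for GTP on EEF1A. Its guanine exchange subunit EEF1B2 had 598, 696 and 1039 FPKM in heat-adapted libraries, against 1011, 1122 and 836 in heat-sensitive libraries (log2 difference -0.38, SE 0.23, limma adjusted p = 0.42). EEF1D, the other exchange subunit, had 1101, 1248 and 2046 FPKM in heat-adapted libraries, against 1849, 1910 and 1463 in heat-sensitive libraries (-0.29, SE 0.25, limma adjusted p = 0.57). For both, heat-adapted replicates 1 and 2 lay below every heat-sensitive library, while heat-adapted replicate 3 lay among or above them. Without heat-adapted replicate 3 the differences were -0.61 for EEF1B2 and -0.56 for EEF1D, and without heat-adapted replicate 1 they were -0.21 and -0.11. Neither passed in any of these fits.

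EEF1E1, which in mammals belongs to the complex of aminoacyl-tRNA synthetases, was the member of smallest p. It had 49.2, 61.2 and 52.9 FPKM in heat-adapted libraries, against 70.3, 85.3 and 72.3 in heat-sensitive libraries. The groups did not overlap, and the log2 difference was -0.47 (SE 0.15, 95% interval -0.80 to -0.14, unadjusted p = 0.00992, limma adjusted p = 0.17). EEF1G, the scaffold subunit of the EEF1B complex, is listed at 0 in all 6 libraries. Of the 15656 genes, 203 were at 0 in every library. Whether the value of EEF1G is a failed estimate was not tested, and nothing was drawn from it.

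EEF2, the translocase that moves the ribosome by a codon, had 410, 516 and 476 FPKM in heat-adapted libraries, against 470, 546 and 436 in heat-sensitive libraries. The groups overlapped throughout, with a log2 difference of -0.05 (SE 0.17, 95% interval -0.43 to 0.33). EEF2K, the kinase that inhibits EEF2, was at 13.0, 15.7 and 10.2 FPKM in heat-adapted and at 13.0, 11.1 and 8.65 in heat-sensitive libraries. EEF2KMT, a lysine methyltransferase acting on EEF2, had 16.8, 17.9 and 24.1 FPKM in heat-adapted libraries, against 17.9, 11.7 and 13.3 in heat-sensitive libraries. Its log2 difference of 0.44 (SE 0.20) was the highest among the members and did not pass (limma adjusted p = 0.28), and the groups overlapped at heat-sensitive replicate 1. Without heat-adapted replicate 3 it was 0.28. EEF1AKMT1, which methylates EEF1A, had a log2 difference of -0.09.

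A ratio of 2 genes within a library does not move when all values of a library are scaled by 1 factor. Quantile normalization is not such a scaling. With it the log2 differences of EEF1A1 and EEF2 were -0.14 and -0.06, against -0.40 and -0.05 with FPKM. The ratios below are those of FPKM. The ratio of EEF1A1 to EEF2 FPKM was 8.88, 8.40 and 9.78 in heat-adapted libraries, against 11.9, 11.6 and 10.8 in heat-sensitive libraries. Every heat-adapted ratio was below every heat-sensitive one, with a log2 difference of -0.35 (SE 0.08). Its 2-sided exact permutation p was 0.1, the smallest that 3 against 3 libraries allow, and 0.3 after adjustment over the 6 ratios compared. The ratio of EEF1A1 to EEF1B2 was 6.08, 6.22 and 4.48 in heat-adapted libraries and 5.54, 5.64 and 5.65 in heat-sensitive libraries (exact permutation p = 1). It was nearly constant among heat-sensitive libraries, and heat-adapted replicate 3 stood apart from the other heat-adapted libraries. Without that library the log2 difference of this ratio was 0.13, against -0.02 with all libraries.

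**Figure D3:**
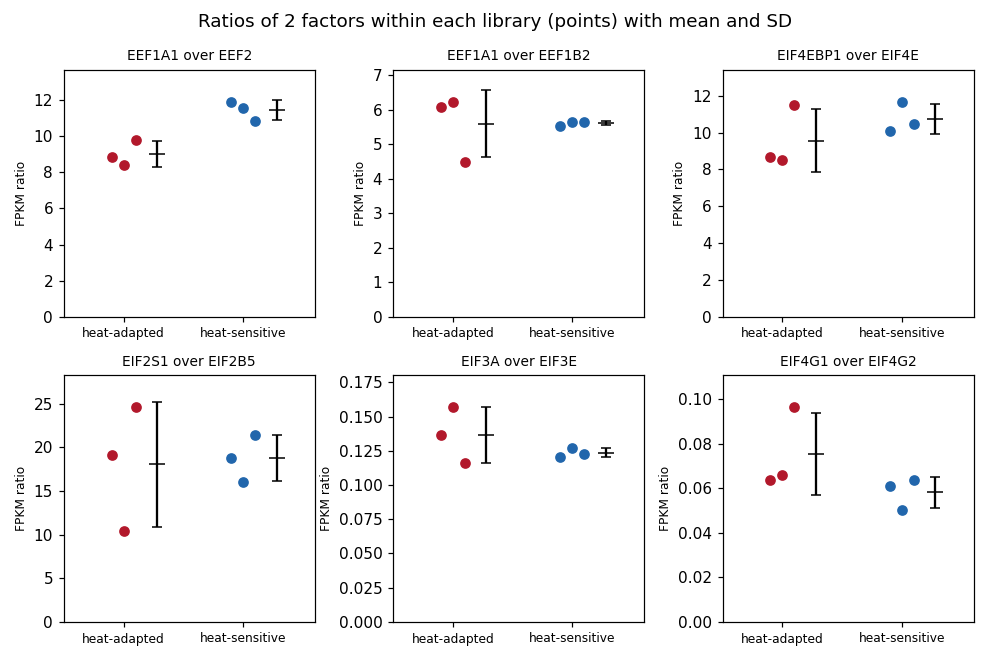
Ratio of FPKM of 2 factors in each library (points), heat-adapted on the left and heat-sensitive on the right, with mean and SD beside them. The ratio of EEF1A1 to EEF2 lies at 8.40 to 9.78 in heat-adapted and 10.8 to 11.9 in heat-sensitive libraries, and the ratio of EIF4G1 to EIF4G2 also does not overlap.

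EIF3 is the large scaffold on the small ribosomal subunit that gathers the other initiation factors. All 11 subunits in the table had a negative log2 difference, with a median of -0.22, and 0 of 11 passed the test. Among all tested genes 58.3% were lower with FPKM. In none of the 11 were the groups separated, against 12.9% of all tested genes downward and 9% upward. With TPM 6 of 11 were lower and the median was -0.10, and with median-of-ratios scaling 8 of 11 were lower and the median was -0.14. Among all tested genes 43.4% were lower with TPM and 47.8% with median-of-ratios scaling. Quantile normalization left 11 of 11 lower, with a median of -0.21, against 50.2% lower among all tested genes. Relative to the median of all genes the EIF3 median was -0.16 with FPKM and -0.15 with TPM. It was -0.16 with median-of-ratios scaling and -0.21 with quantile normalization. Without heat-adapted replicate 1 the EIF3 median was -0.06, and without heat-sensitive replicate 2 it was -0.12.

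EIF3H, a noncore subunit, had 340, 352 and 412 FPKM in heat-adapted libraries, against 498, 559 and 382 in heat-sensitive libraries (log2 difference -0.37, SE 0.18, limma adjusted p = 0.33). EIF3D, which in human cells can itself bind the cap of some messengers, had 96.9, 120 and 132 FPKM in heat-adapted libraries, against 154, 161 and 124 in heat-sensitive libraries (-0.33, SE 0.17, limma adjusted p = 0.34). In both, heat-sensitive replicate 3 fell within the heat-adapted range while the other heat-sensitive libraries lay above it. EIF3M had 277, 264 and 338 FPKM in heat-adapted libraries and 376, 401 and 300.3 in heat-sensitive libraries, with the same arrangement (-0.29, SE 0.17). EIF3E had 288, 381 and 368 FPKM in heat-adapted libraries, against 419, 452 and 356 in heat-sensitive libraries (-0.25, SE 0.17). Without heat-adapted replicate 1 the difference was -0.12 for EIF3E and -0.20 for EIF3D.

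The core subunit EIF3A had 39.2, 59.8 and 42.8 FPKM in heat-adapted libraries, against 50.5, 57.5 and 43.6 in heat-sensitive libraries. Its groups overlapped, with a log2 difference of -0.11 (SE 0.19). The ratio of EIF3A to EIF3E was 0.136, 0.157 and 0.116 in heat-adapted and 0.121, 0.127 and 0.122 in heat-sensitive libraries (exact permutation p = 0.4). The other 6 subunits, EIF3B, EIF3F, EIF3G, EIF3I, EIF3J and EIF3L, had log2 differences from -0.27 for EIF3F to -0.02 for EIF3I.

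EIF2 carries the initiator tRNA, and stress kinases that phosphorylate its alpha subunit EIF2S1 turn it into an inhibitor of its own exchange factor EIF2B. EIF2S1 had 116, 109 and 128 FPKM in heat-adapted libraries, against 122, 113 and 116 in heat-sensitive libraries. Its groups overlapped fully, with a log2 difference of 0.00 (SE 0.13, 95% interval -0.30 to 0.30). The gamma subunit EIF2S3, which binds GTP and the tRNA, had 192, 257 and 223 FPKM in heat-adapted libraries, against 269, 295 and 241 in heat-sensitive libraries (-0.26, SE 0.16, limma adjusted p = 0.43). Without heat-adapted replicate 1, the lowest of the 6, its difference was -0.16. The beta subunit EIF2S2 had a log2 difference of -0.07.

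The 5 subunits of EIF2B did not move one way: 2 were lower and 3 higher in heat-adapted mucosa, and the median log2 difference was 0.05. EIF2B2, a regulatory subunit, had 21.8, 27.3 and 20.5 FPKM in heat-adapted libraries, against 29.3, 31.1 and 31.8 in heat-sensitive libraries. The groups did not overlap, and the log2 difference of -0.40 (SE 0.14, unadjusted p = 0.021) had a limma adjusted p of 0.21. EIF2B4 had 25.9, 26.7 and 40.5 FPKM in heat-adapted libraries and 32.1, 28.0 and 27.9 in heat-sensitive libraries, with heat-adapted replicate 3 above all others. EIF2B1 and EIF2B3 had log2 differences of -0.25 and 0.07. EIF2B5 had 6.04, 10.5 and 5.2 FPKM in heat-adapted libraries, against 6.49, 7.05 and 5.43 in heat-sensitive libraries. Its highest value was that of heat-adapted replicate 2, and without this library the log2 difference was -0.14, against 0.13 with all libraries.

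The ratio of EIF2S1 to EIF2B5 was 19.2, 10.4 and 24.6 in heat-adapted libraries, against 18.8, 16.1 and 21.4 in heat-sensitive libraries. This spread did not separate the groups (exact permutation p = 0.9). EIF2A and EIF2D, which can deliver tRNA without EIF2, both had log2 differences of -0.09. EIF2D had 30.9, 31.3 and 35.0 FPKM in heat-adapted libraries and 35.8, 36.6 and 31.2 in heat-sensitive libraries.

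The EIF4 factors recognise the cap and open the leader for scanning. Of 10, 8 were lower and 2 higher in heat-adapted mucosa, and the median log2 difference was -0.08. With TPM 4 were lower and 6 higher, against 43.4% lower among all tested genes. The helicase EIF4A2 had 1126, 1279 and 1151 FPKM in heat-adapted libraries, against 1398, 1599 and 1292 in heat-sensitive libraries. The groups did not overlap, by a margin of 1279 to 1292, and the log2 difference was -0.27 (SE 0.17, limma adjusted p = 0.43). The cap-binding protein EIF4E had 27.0, 28.9 and 23.7 FPKM in heat-adapted libraries, against 29.1, 26.2 and 29.5 in heat-sensitive libraries (-0.09, SE 0.13).

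The scaffold EIF4G1, which bridges EIF4E to EIF3, had 21.5, 23.7 and 25.4 FPKM in heat-adapted libraries, against 20.9, 18.5 and 22.0 in heat-sensitive libraries (log2 difference 0.19, SE 0.14, limma adjusted p = 0.49). EIF4G2, a relative that lacks the EIF4E site, was more abundant, with 338, 360 and 263 FPKM in heat-adapted libraries, against 344, 369 and 347 in heat-sensitive libraries (-0.15, SE 0.17). Without heat-adapted replicate 3 the EIF4G2 difference was -0.017, and without heat-sensitive replicate 2 that of EIF4G1 was 0.12. The ratio of EIF4G1 to EIF4G2 was 0.0635, 0.0658 and 0.0964 in heat-adapted libraries, against 0.0609, 0.0502 and 0.0635 in heat-sensitive libraries. The groups met at 0.06353 and 0.06351 without overlapping (log2 difference 0.35, SE 0.22, exact permutation p = 0.1, 0.3 after adjustment). Without heat-adapted replicate 3, the highest of the 6, the log2 difference of the ratio was 0.16. EIF4A3, a helicase that sits on spliced messengers, had 119, 124 and 127 FPKM in heat-adapted libraries, against 128, 146 and 145 in heat-sensitive libraries. EIF4E2, a cap-binding relative of EIF4E, had 36.7, 39.2 and 38.8 FPKM in heat-adapted libraries, against 40.3, 39.9 and 40.6 in heat-sensitive libraries. Both were separated, by small margins, with log2 differences of -0.17 (SE 0.13) and -0.07 (SE 0.12). EIF4E3, EIF4B, EIF4H and EIF4G3 overlapped, with log2 differences of -0.21, 0.02, -0.0053 and -0.0050.

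The EIF4E-binding proteins compete with EIF4G for EIF4E when they are not phosphorylated. EIF4EBP1 had 234, 245 and 273 FPKM in heat-adapted libraries, against 293, 306 and 308 in heat-sensitive libraries. All heat-adapted values were lower, with a log2 difference of -0.27 (SE 0.14, 95% interval -0.59 to 0.05, limma adjusted p = 0.34). The ratio of EIF4EBP1 to EIF4E was 8.66, 8.49 and 11.5 in heat-adapted libraries, against 10.1, 11.7 and 10.5 in heat-sensitive libraries (exact permutation p = 0.3). EIF4EBP2 had a log2 difference of -0.20.

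EIF1, which keeps start codon choice accurate, had 382, 321 and 376 FPKM in heat-adapted libraries, against 357, 363 and 389 in heat-sensitive libraries (log2 difference -0.04, SE 0.15). EIF1AY, which helps to open the small subunit for scanning, had 110, 115 and 108 FPKM in heat-adapted libraries, against 118, 141 and 121 in heat-sensitive libraries (-0.19, SE 0.14, limma adjusted p = 0.50). EIF1AY was separated downward and EIF1 overlapped, while EIF1B had a log2 difference of 0.05. EIF5, the GTPase-activating partner of EIF2, had 309, 351 and 300.3 FPKM in heat-adapted libraries, against 322, 436 and 315 in heat-sensitive libraries. Its difference of -0.15 (SE 0.17) rested on heat-sensitive replicate 2, and without that library it was 0.0050. EIF5B, the GTPase of subunit joining, had a log2 difference of -0.04.

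EIF5A2, a paralog of the hypusine-bearing factor EIF5A, had 32.7, 31.3 and 48.7 FPKM in heat-adapted libraries, against 51.9, 53.5 and 45.0 in heat-sensitive libraries. Heat-adapted replicate 3 lay within the heat-sensitive range (log2 difference -0.43, SE 0.18, unadjusted p = 0.0427, limma adjusted p = 0.26). EIF6, which keeps the large ribosomal subunit from joining too early, ran the other way, with 61.5, 72.1 and 58.4 FPKM in heat-adapted libraries, against 49.1, 48.5 and 55.9 in heat-sensitive libraries. It was the single member with all heat-adapted values above all heat-sensitive ones (0.31, SE 0.14, 95% interval -0.00 to 0.63, limma adjusted p = 0.28). Its difference stayed positive in each scaling and with each library left out, from 0.23 to 0.44. EIF5A, EIF3K, EIF4E1B and EIF4EBP3, symbols in RefSeq's table, were not analysed here, nor were EIF4A1 and EIF3C.

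**Figure D4:**
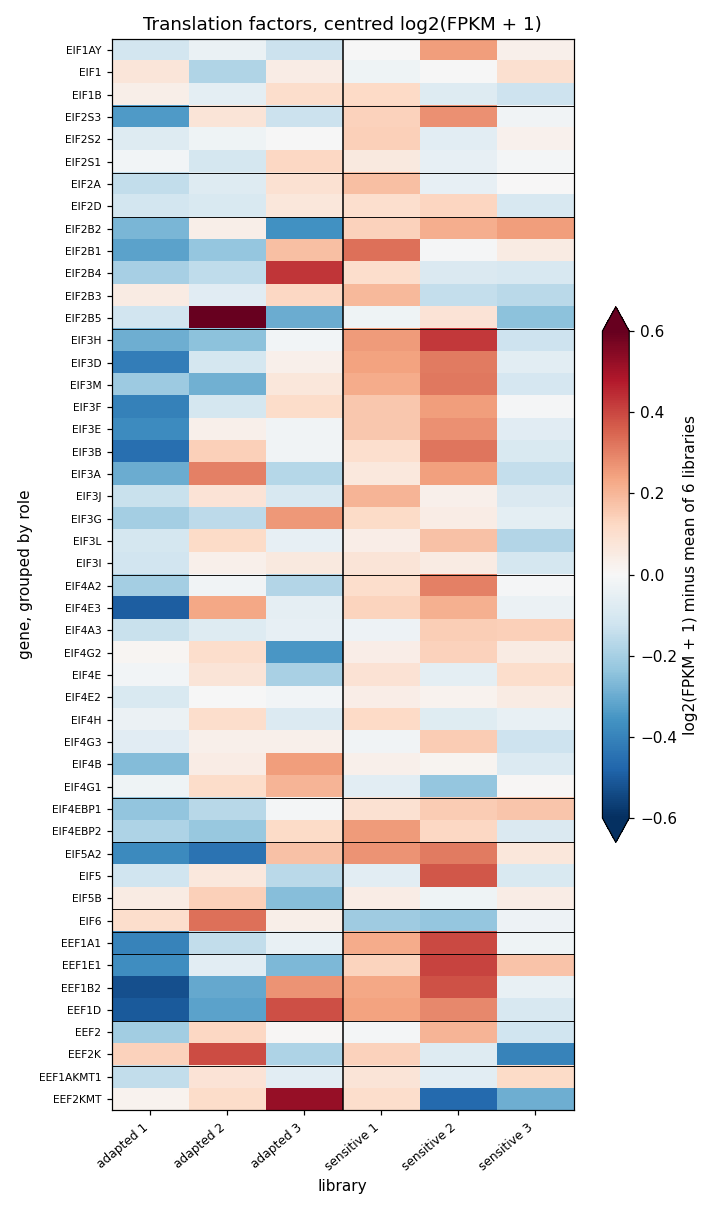
Log2(FPKM + 1) of the 48 tested factors minus each gene's mean over the 6 libraries, with the 3 heat-adapted libraries left of the line and the 3 heat-sensitive ones right of it; thin lines divide the roles. Heat-adapted replicate 1 is the lowest library for 27 factors and heat-sensitive replicate 2 the highest for 20, and the colours differ within both groups.

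Extreme values were spread unevenly over the libraries. Without heat-adapted replicate 1 the members' median log2 difference was -0.06, and without heat-sensitive replicate 2 it was -0.11, against -0.09 with all libraries. Heat-adapted replicate 1 held the lowest of the 6 values in 27 of 48 members, where it held the lowest in 34.5% of all tested genes. Heat-sensitive replicate 2 held the highest value in 20 members, against 22.4% of all tested genes. The median centred log2 value of the members was -0.15, -0.01 and -0.01 in the heat-adapted libraries and 0.11, 0.13 and -0.04 in the heat-sensitive ones. Over all tested genes it was -0.111, 0.015 and 0.005 in the heat-adapted libraries and 0.086, 0.029 and -0.036 in the heat-sensitive ones. In both, heat-adapted replicate 1 was lowest and heat-sensitive replicate 3 lay below heat-adapted replicates 2 and 3. The widest gap between members and all genes was in heat-sensitive replicate 2. The summed FPKM of the elongation factors was 5839, 6903 and 8317 in heat-adapted libraries, against 9048, 10028 and 7573 in heat-sensitive libraries, so the groups overlapped. That of the initiation factors was 5287, 5821 and 5833 in heat-adapted libraries, against 6457, 6965 and 5927 in heat-sensitive libraries.

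The more abundant factors tended to have the more negative differences, with exceptions. EEF1E1, EIF2B2 and EIF5A2, with differences of -0.47, -0.40 and -0.43, had mean FPKM below 100. EEF2 and EIF1, above 200, had -0.05 and -0.04. Over the 48 members Spearman's rho between level and log2 difference was -0.49, and over the 11587 tested genes it was 0.15; members share the same libraries, and both are descriptions. All 14 members with a mean FPKM of at least 200 were lower in heat-adapted mucosa (median log2 difference -0.26), and 0 passed. Of the 527 tested genes at that level, members and ribosomal protein genes included, 60.0% were lower, with a median of -0.07. Without both, 446 genes remained, of which 52.9% were lower, with a median of -0.02. The limit of 200 was chosen after the values were seen; at 100, 19 of 21 members were lower, with a median of -0.25. With TPM 11 of the 14 were lower (median -0.14), against 44.6% of the 527 genes. Median-of-ratios scaling left 11 of the 14 lower (median -0.18), against 47.8% of the 527. Quantile normalization left 14 of 14 lower (median -0.14), against 56.7% of the 527. Without heat-sensitive replicate 2, 12 of 14 were lower (median -0.19), against 64.1% of the 527.

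**Figure D5:**
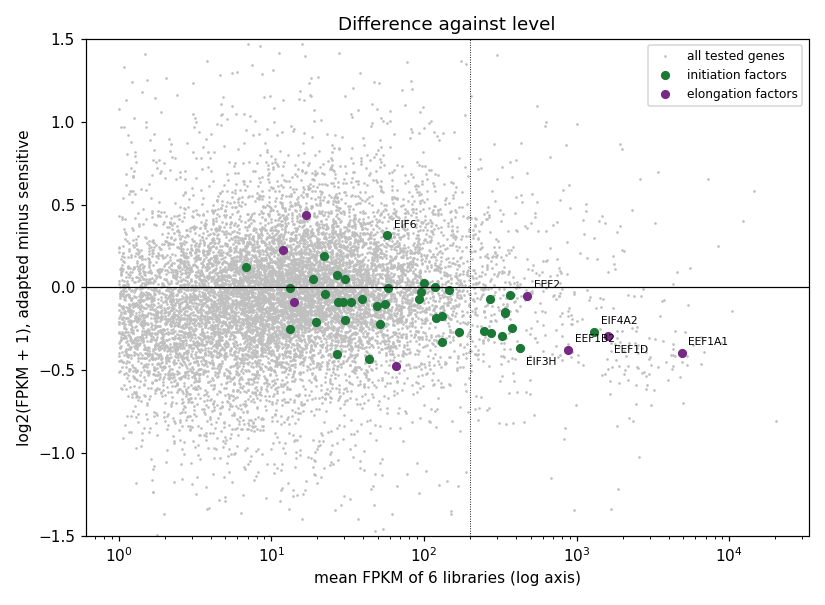
Log2 difference, heat-adapted minus heat-sensitive, against mean FPKM on a log axis for all tested genes (grey) and for initiation and elongation factors; the dotted line marks 200 FPKM. All 14 factors right of it lie below 0, and 67 genes with a difference beyond 1.5 in either direction are outside the plot.

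Ribosomal protein genes share with several of these factors a pyrimidine-rich messenger start (the TOP motif, known from mammals). They had a median log2 difference of -0.41 and were lower in 68 of 69 tested, against 58.3% of all tested genes. In limma 0 passed, and 17 (24.6%) had an unadjusted p below 0.05, all of them lower. Among all tested genes 18% reached it, 10.9% lower. The groups did not overlap in 15.9%, all separated downward. Among all tested genes 12.9% were separated downward and 21.9% in either direction. Their summed FPKM overlapped, at 142798 to 211399 in heat-adapted and 189440 to 249333 in heat-sensitive libraries. Among the members known in human cells as TOP messages, a list chosen after the values were seen, EEF1A1, EEF1B2, EEF1D, EIF3E, EIF3F and EIF3H had differences of -0.40 to -0.25. EEF2 and EIF4B, of the same list, had -0.05 and 0.02. The median of these 8 was -0.28, and that of the other 40 tested members was -0.09. This comparison was not tested, and the motif was not separated from level.

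Of 71 tested genes for release, recycling, poly(A) binding, EIF2 and TOR control, noncanonical initiation and helicases, hypusine and diphthamide synthesis, mitochondrial factors and aminoacyl-tRNA synthetases, 48 were lower and 23 higher. The 48 were 67.6% of the 71, against 58.3% lower among all tested genes, with FPKM. None of the 71 passed, and 9 had an unadjusted p below 0.05 in limma, which is 12.7% against the 18% of all tested genes. Of these 9, 4 were in the list of 7 for noncanonical initiation and helicases. The helicase DDX3X, which assists EIF4A on structured leaders, had 519, 594 and 667 FPKM in heat-adapted libraries, against 1338, 1171 and 769 in heat-sensitive libraries (log2 difference -0.85, SE 0.23, limma adjusted p = 0.14). PAIP2, an inhibitor of poly(A)-binding protein, had 72.5, 75.7 and 76.2 FPKM in heat-adapted libraries, against 120, 112 and 95.9 in heat-sensitive libraries (-0.53, SE 0.14, limma adjusted p = 0.13). EIF2AK2, the EIF2 kinase that senses double-stranded RNA, had 22.7, 20.9 and 17.4 FPKM in heat-adapted libraries, against 14.2, 13.3 and 17.6 in heat-sensitive libraries (0.41, SE 0.16, limma adjusted p = 0.24).

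By list, the median log2 differences were 0.10 for release and recycling, -0.28 for poly(A) binding, -0.11 for EIF2 kinases and phosphatase subunits and -0.04 for cap binding and TOR control. They were -0.30 for noncanonical initiation and helicases, -0.07 for hypusine and diphthamide synthesis, -0.07 for mitochondrial factors and -0.05 for aminoacyl-tRNA synthetases. Beside the 3 genes above, those of smallest p in each list were PELO (-0.30), GSPT1 (0.19), PAIP1 (-0.37), GCN1 (-0.20), PDCD4 (-0.39), MTOR (0.20), BZW2 (-0.33), DPH6 (0.57), DPH1 (-0.36), MTRF1L (-0.32), MTIF2 (0.16), DARS (0.57) and AIMP1 (-0.29). None of these passed.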

How the data were processed

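RNA-seq libraries were made from pooled jejunal mucosa RNA with PCR amplification, per the labels' protocols. The submitters' processing notes name build GRCg6a and the tools HTSeq 0.6.1, HISAT2 2.0.1, DESeq2 and cutadapt 1.9.1; the sources used here give neither their settings nor the strand. The deposited table has the authors' FPKM and read counts, taken as estimated counts because 13.2% to 13.7% of the deposited values are not whole. Mean FPKM and read count did not go together by row (Spearman's rho -0.0049), so read counts were not used for genes, and the count test planned for such data was replaced by the one for FPKM. Between libraries, ratios of FPKM and read-count rows (cells of 0.002 in log ratio) gave a largest cell of 824 row pairs in the heat-sensitive group, against 212 in surrounding cells; in the heat-adapted group these were 362 and 290. In 19 rows the symbol was a date, and these were left out.

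Genes reaching a mean FPKM of 1 entered limma 3.58.1 (R 4.3.3) as log2(FPKM + 1) (trend, robust, no block), 2-sided, at a Benjamini-Hochberg adjusted p of 0.05 over 11587 genes; the scale understates changes of low genes. The fit was tested on simulated data. Counts per direction and medians describe lists without a test. Ratios of 2 members were compared with 2-sided exact permutation tests (Python 3.11.15, scipy 1.17.1). Members and lists were chosen with earlier results of these data known. Named are the most abundant member of each role, the 12 of smallest p and the ratio members; other genes were chosen as the text says, and members given by difference alone complete their role. Alternatives covered pseudocount, filter, scaling, variance model, replicate block and each library left out.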

Additional observations from a re-analysis of the deposited data

How the results depend on the processing

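No member passed an adjusted p of 0.05 in limma in any of the 14 alternatives. The smallest adjusted p was 0.0876, without heat-adapted replicate 3. An unadjusted limma p below 0.05 was reached by 2 to 11 members, with 11 when heat-adapted replicate 3 was left out. The share of all tested genes reaching it is not given for the alternatives, so these counts stand without a background. The number of all genes called was 11, and was 17 with a pseudocount of 0.1, 7 with no filter and 7 with a mean FPKM of at least 5, 38 with TPM, 20 with median-of-ratios scaling, 46 with the replicate block, and 6 to 64 with a library left out (6 without heat-adapted replicate 2, 64 without heat-adapted replicate 3). With TPM the median log2 difference was 0.026 for the members, 0.079 for EIF1 and EIF1A, 0.051 for EIF2, 0.031 for EIF2A and EIF2D, 0.038 for EIF4 and -0.11 for EIF4EBP; with median-of-ratios scaling it was 0.037 for EIF1 and EIF1A, 0.0096 for EIF2 and -0.0027 for EIF4. With quantile normalization EEF1A1 was at -0.14. With a library left out, the members' median ranged from -0.15 to -0.056, EIF1 and EIF1A from -0.091 to 0.036, EIF2B from -0.15 to 0.12, the log2 ratio of EEF1A1 to EEF1B2 from -0.10 to 0.13 and that of EIF2S1 to EIF2B5 from -0.40 to 0.22. Of all 48 members, 38 were lower with FPKM, 22 with TPM, 28 with median-of-ratios scaling and 38 with quantile normalization. The shares of all tested genes were 58.3%, 43.4%, 47.8% and 50.2% in the same order. Among the 26 named members, those that changed sign with TPM were EEF2 (0.071), EIF1 (0.079), EIF2D (0.031), EIF3A (0.011) and EIF4E (0.029), with median-of-ratios scaling EEF2 (0.030) and EIF1 (0.037), and with quantile normalization EIF2S1 (-0.010). With a library left out, which was run for single genes in the named members, the ranges of those that changed sign were -0.13 to 0.039 for EEF2, -0.091 to 0.036 for EIF1, -0.15 to 0.16 for EIF2B4, -0.14 to 0.30 for EIF2B5, -0.060 to 0.054 for EIF2S1, -0.29 to 0.010 for EIF3A and -0.23 to 0.0050 for EIF5. The cause of these changes was not tested. No source used here says that replicate numbers pair the pools. The correlations of deviations of same-numbered libraries were -0.16, 0.11 and -0.19. Deviations within 3 libraries sum to 0, so these values cannot decide whether same-numbered pools shared a batch. The replicate block called 0 members. With 3 pools per group the intervals of single members had a median half-width of 0.35 on the log2 scale, which limits the differences that could be detected. The scaling checks of separated members and of abundant members were chosen after seeing the data.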
